A study of Mus musculus with 7 samples.

Results

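The genes described here are 9 magnesium transport genes: Slc41a1, Slc41a2 and Slc41a3 of the Slc41 carrier family, Cnnm1, Cnnm2, Cnnm3 and Cnnm4 of the CNNM family, and the channel kinases Trpm6 and Trpm7. They were chosen by gene symbol from a liver microarray table in which 19933 genes had a probe set with exactly 1 annotated symbol, and each of the 9 had 1 such probe set. The family was taken up with the difference of Slc41a2 in this comparison already known, so the members' differences between the groups are given as a description and without p-values. In the HDAC3 knockout (KO) group, 3 male C57BL/6 mice received AAV-Cre, an adeno-associated viral vector for Cre recombinase. The rescued group was made of 4 male C57BL/6 mice that received AAV-Cre together with AAV-Flag-HDAC3, which supplies wild-type HDAC3 with a Flag tag, and the titles call these livers WT. All mice were 4 months old, were fed ad libitum, and gave their livers at 5 pm (ZT10, 10 h after the start of the light phase), 2 weeks after injection. HDAC3 is a histone deacetylase that works within nuclear corepressor complexes. Both groups carry Cre, the groups differ by a second vector, and liver from uninjected mice was not analysed here. The labels name neither the allele on which Cre acts nor the promoter that drives it.

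Magnesium ions bind ATP and nucleic acids, and cells hold their free concentration by moving the ions across the plasma membrane and between organelles. TRPM6 and TRPM7 are ion channels fused to a kinase domain that let magnesium and other divalent cations into the cell. CNNM proteins favour magnesium leaving the cell, and SLC41 proteins are carriers related to the bacterial transporter MgtE.

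The table holds 1 intensity per probe set and array, and the values below are log2 intensities. Across arrays, the median intensity was 105.01 to 110.85 in the KO arrays and 96.29 to 102.33 in the rescued arrays. Differences are KO minus rescued, with the standard error (SE) of a limma fit over all 19933 genes. A gene is said to be called when its adjusted p in that fit is under 0.05. The Hdac3 transcript had 8.93, 8.75 and 9.07 in KO livers, against 9.23, 9.45, 9.55 and 9.38 in rescued livers. All 3 KO arrays lay below all 4 rescued arrays, with a difference of -0.48 (SE 0.10, adjusted p = 0.0124 in limma's test), and the call was lost without KO replicate 1 (adjusted p = 0.050013). Its probe set may read the vector transcript as well as the endogenous one, so it checks the labels only in part.

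Of the 9 members, 3 were called higher in KO livers (Slc41a2, Cnnm1 and Trpm6) and 1 lower (Trpm7), and 5 were not called. Among the 19933 genes tested 14.4% were called, with 9.54% higher and 4.85% lower. The median difference of the 9 was 0.063, against 0.090 over all genes tested. All KO arrays lay above all rescued arrays for the same 3 members and below them for Trpm7, while 21.0% of all genes had every KO array above and 8.56% every KO array below. The calls differed in how much they depended on the scaling of the arrays. After quantile scaling, median centring or cyclic loess, Slc41a2 was the only member still called higher, and Trpm7 was called lower after median centring alone.

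**Figure D1:**
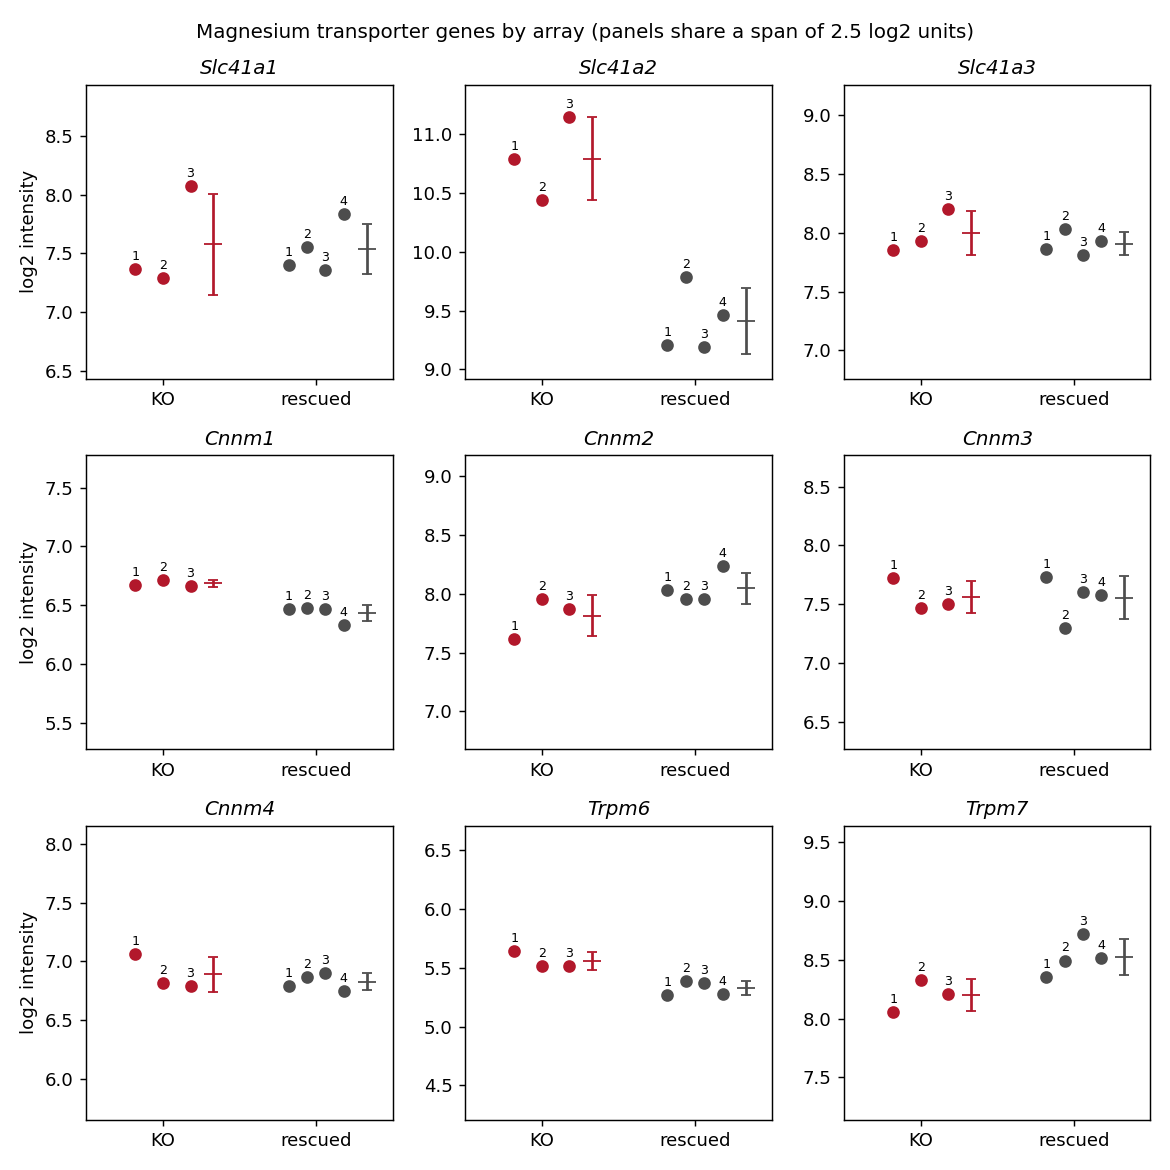
Log2 intensity of the 9 genes on each array, KO (red, n = 3) left of rescued (grey, n = 4), with the replicate number above each point and the mean ± SD beside the points. Every panel spans the same number of log2 units, so distances compare across panels while levels do not. Slc41a2 stands apart by the distance between its groups, at 10.44 to 11.15 in KO livers and 9.19 to 9.79 in rescued livers.

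Slc41a2 encodes a carrier that transported magnesium when the protein was produced in chicken B cells. Its intensity was 1768, 1390 and 2273 in KO livers, against 589.6, 884.6, 584.0 and 705.4 in rescued livers. On the log2 scale it had 10.79, 10.44 and 11.15 in KO livers, against 9.20, 9.79, 9.19 and 9.46 in rescued livers. The lowest KO array lay 0.65 above the highest rescued array, so the groups did not overlap, although the arrays within each group also spread widely. The mean was 10.79 ± 0.35 in KO livers (SD, n = 3) and 9.41 ± 0.28 in rescued livers (SD, n = 4). The difference was 1.38 (SE 0.17), or 2.61-fold higher in KO livers, and ranked 10 among the 19933 genes from the highest difference down. It stayed between 1.20 and 1.56 when single arrays were left out, and between 1.28 and 1.40 under the other settings tried.

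The other carriers of the family were not called. Slc41a1, which encodes a sodium-dependent magnesium exporter of the plasma membrane, had 7.37, 7.29 and 8.07 in KO livers, against 7.40, 7.56, 7.36 and 7.83 in rescued livers. The groups overlapped, and KO replicate 3 stood above the other KO arrays by more than the difference between the group means. The difference of Slc41a1 was 0.041, with a 95% interval of -0.34 to 0.43, and without KO replicate 3 it was -0.21. Slc41a3, whose product is known as a magnesium exporter of mitochondria, had 7.86, 7.93 and 8.21 in KO livers, against 7.87, 8.03, 7.81 and 7.93 in rescued livers. Here too KO replicate 3 was the highest array and the groups overlapped, with a difference of 0.089 and an interval of -0.11 to 0.29. KO replicate 3 was thus the highest KO array for all 3 Slc41 genes. Neither interval reaches the 95% interval of Slc41a2, which ran from 1.00 to 1.76. That interval makes no allowance for the difference of Slc41a2 being known when the family was chosen. The differences of the 3 genes come from the same arrays, and the contrast between them was not tested.

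The promoters of the Slc41 genes and of Trpm7 are shown because these genes hold the largest rise of the family, its closest relatives that were not called, and the largest fall. Each sequence is the 250 bases before the annotated transcription start, 5′ to 3′ on the gene's strand, from RefSeq (build GRCm38.p6). All 9 members matched an entry. Capitals mark matches, on either strand, to the nuclear receptor core element AGGTCA, the E-box CACGTG, the GC box GGGCGG, the CCAAT box, the promoter element TATAAA or the core of the cAMP response element, TGACG. None of the marked matches overlap in these 4 sequences.
Slc41a2: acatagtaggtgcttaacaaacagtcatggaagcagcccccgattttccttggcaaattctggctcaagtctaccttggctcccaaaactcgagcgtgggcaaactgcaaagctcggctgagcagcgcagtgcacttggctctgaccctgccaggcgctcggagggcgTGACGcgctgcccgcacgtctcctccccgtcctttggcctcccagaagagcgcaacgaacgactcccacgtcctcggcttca
Slc41a1: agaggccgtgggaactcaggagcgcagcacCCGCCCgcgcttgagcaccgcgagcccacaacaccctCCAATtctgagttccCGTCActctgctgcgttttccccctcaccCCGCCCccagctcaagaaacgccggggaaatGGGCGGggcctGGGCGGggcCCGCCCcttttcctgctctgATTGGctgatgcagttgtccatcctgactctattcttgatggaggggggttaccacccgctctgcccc
Slc41a3: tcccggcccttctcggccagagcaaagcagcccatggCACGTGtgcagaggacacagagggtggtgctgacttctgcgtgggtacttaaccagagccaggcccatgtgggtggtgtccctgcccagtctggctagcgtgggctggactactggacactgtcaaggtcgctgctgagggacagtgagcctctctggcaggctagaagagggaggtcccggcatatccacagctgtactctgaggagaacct
Trpm7: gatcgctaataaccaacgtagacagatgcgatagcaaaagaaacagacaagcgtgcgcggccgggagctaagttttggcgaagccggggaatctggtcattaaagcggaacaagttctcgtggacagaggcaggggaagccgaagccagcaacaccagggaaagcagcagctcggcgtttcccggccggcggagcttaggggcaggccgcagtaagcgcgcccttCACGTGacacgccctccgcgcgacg

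The Slc41a2 promoter lies at chr10:83337818-83338067 on the minus strand and Slc41a1 at chr1:131827762-131828011 on the plus strand. Slc41a3 lies at chr6:90618996-90619245 on the plus strand and Trpm7 at chr2:126876262-126876511 on the minus strand. In the Slc41a2 window the only match was TGACG, from 82 to 78 bases before the start, a motif present in 17.9% of 27025 promoter windows of the same length. The Slc41a1 window held 5 GC boxes, 2 CCAAT boxes and 1 TGACG on the reverse strand. GC boxes occur in 32.9% and CCAAT in 34.5% of all windows. The Slc41a3 and Trpm7 windows each held 1 E-box, which occurs in 6.05% of windows. TATAAA, in 13.0% of windows, was in none of the 9 members' windows, and AGGTCA, in 13.8%, was in those of Cnnm1 and Cnnm3. The Slc41a2 window has 59.6% GC and 18 CpG pairs, against medians of 52% and 6 over all windows. All 9 members' windows lay above both medians. GC ran from 54.4% for Trpm6 to 75.6% for Cnnm4, and CpG pairs from 7 for Slc41a3 and Trpm6 to 34 for Cnnm4. The motif hits are matches of letters, with no measurement of binding.

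Trpm7 encodes a widely expressed channel kinase and Trpm6 its relative known from kidney and intestine. Trpm7 had 8.06, 8.33 and 8.21 in KO livers, against 8.35, 8.49, 8.72 and 8.52 in rescued livers. Every KO array lay below every rescued array, by a margin of 0.022 between the nearest arrays. The mean of Trpm7 was 8.20 ± 0.14 in KO livers (SD, n = 3) and 8.52 ± 0.15 in rescued livers (SD, n = 4). The difference was -0.32 (SE 0.10), or 1.25-fold lower in KO livers, and the call was lost without any 1 array other than rescued replicate 1, with differences from -0.39 to -0.25. The direction was the same under every scaling, from -0.41 after median centring to -0.28 after quantile scaling.

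Trpm6 was dim. It had 5.64, 5.51 and 5.52 in KO livers, against 5.27, 5.39, 5.38 and 5.28 in rescued livers, and the groups did not overlap. Levels of 1196 olfactory and vomeronasal receptor genes were averaged over all 7 arrays. The KO mean of Trpm6 was above 86.0% of these averages and its rescued mean above 81.3%. These receptors are not known as liver genes and serve here as a stand-in for background, so Trpm6 is not shown to be above background. The difference of 0.23 (SE 0.07) was 0.083 after cyclic loess, in which the groups overlapped. The call was lost without any 1 of the 7 arrays. As deposited, genes below the median level had a median difference of 0.14 and the receptor genes of 0.12, whereas genes above the median level had a median difference near 0 (7.37e-05).

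Cnnm1, best known from brain, was also called higher by a small difference. It had 6.67, 6.72 and 6.66 in KO livers, against 6.46, 6.48, 6.46 and 6.33 in rescued livers. All KO arrays lay above all rescued arrays and the spread was small, with SDs of 0.028 in KO livers and 0.068 in rescued livers. The difference of 0.25 (SE 0.07) was 0.13 after cyclic loess, in which the groups overlapped, and the call was lost without any 1 array other than rescued replicate 1. The KO mean of Cnnm1 was above 98.3% of the receptor genes' averages over all arrays, and its rescued mean above 97.2%. The part of the offset between arrays in the differences of Cnnm1 and Trpm6 was not tested beyond these rescalings.

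The other CNNM genes were not called. Cnnm2, which encodes a protein of the distal kidney tubule needed to keep blood magnesium, had 7.62, 7.96 and 7.87 in KO livers, against 8.03, 7.96, 7.96 and 8.24 in rescued livers. KO replicate 1 was the lowest of the 7 arrays, and KO replicate 2 shared its deposited value with rescued replicates 2 and 3 (equal within 1e-09 on the log2 scale). Between any 2 arrays 1.21% to 3.79% of all values were equal. The difference of Cnnm2 was -0.23, with a 95% interval of -0.45 to -0.014, and it was negative in every setting, from -0.32 to -0.13. This interval is for the gene alone, without adjustment over all genes.

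Cnnm4, the magnesium exporter on the blood side of the intestinal epithelium, had 7.06, 6.81 and 6.79 in KO livers, against 6.79, 6.87, 6.90 and 6.74 in rescued livers. Cnnm3, whose product binds PRL phosphatases, had 7.72, 7.46 and 7.50 in KO livers, against 7.73, 7.30, 7.60 and 7.58 in rescued livers. The groups overlapped for both genes. Their differences were 0.063 for Cnnm4 and 0.0084 for Cnnm3, with intervals of -0.12 to 0.24 for Cnnm4 and -0.22 to 0.24 for Cnnm3, and the sign of both changed with the scaling of the arrays. The annotation places Cnnm4 and Cnnm3 next to each other on chromosome 1. For Cnnm4 as for Cnnm3, KO replicate 1 was the highest KO array.

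**Figure D2:**
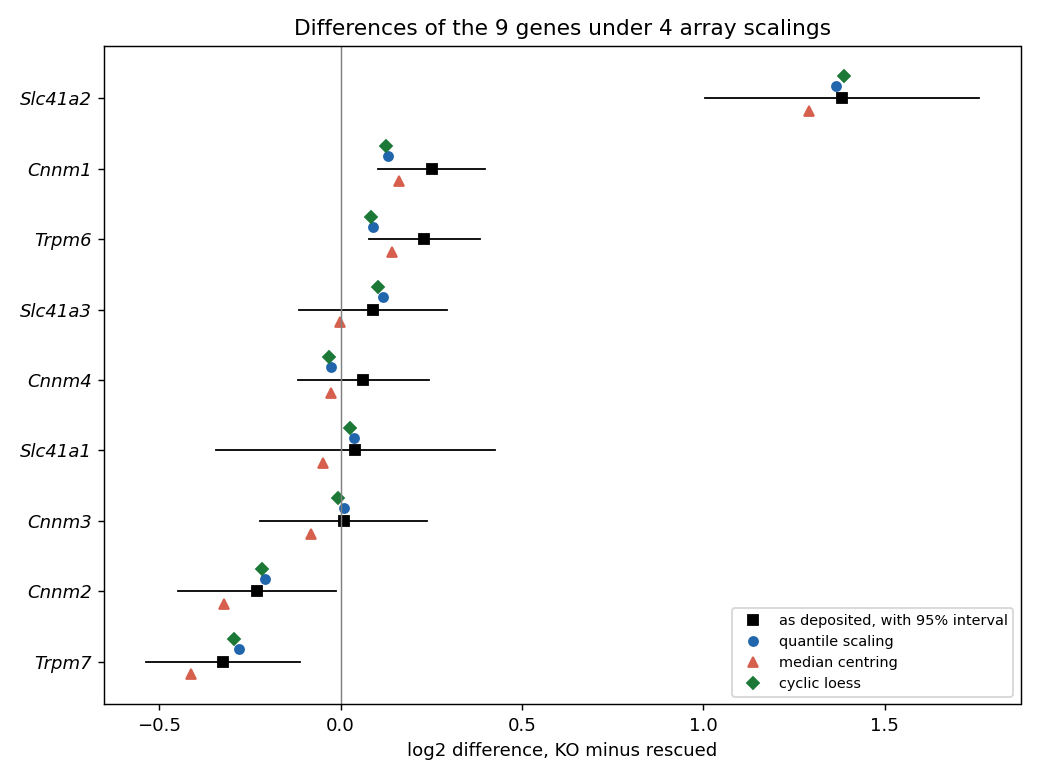
Log2 difference, KO minus rescued, of the 9 genes as deposited (black squares, with the 95% interval of the fit) and after quantile scaling, median centring and cyclic loess (colours). Slc41a2 stays between 1.29 and 1.39, Cnnm1 and Trpm6 move towards 0 in every rescaling, and Trpm7 stays at or below -0.28.

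Genes most like Slc41a2 were sought by the root mean square distance over the 7 arrays, with each gene taken relative to its mean in the rescued arrays. The nearest was Tifa, an adaptor of innate immune signalling, at a distance of 0.27. It had 8.25, 7.87 and 9.31 in KO livers, against 6.88, 7.50, 7.12 and 7.48 in rescued livers. Like Slc41a2, Tifa was highest in KO replicate 3, lowest among the KO arrays in replicate 2, and highest among the rescued arrays in replicate 2. Its difference was 1.23 (SE 0.28), given without a p-value because the distance itself favours a large difference. The distance favours a call in the same way. Tifa was called higher, and the call was lost without KO replicate 1 or rescued replicate 3 and with a trended robust variance.

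Next came Car14, a carbonic anhydrase, at a distance of 0.30, the serine protease gene Tmprss2 at 0.33, the corepressor subunit gene Tbl1xr1 at 0.33 and the fatty acid hydroxylase gene Cyp4a31 at 0.35. Their differences were 1.31 for Car14, 1.12 for Tmprss2, 1.20 for Tbl1xr1 and 1.01 for Cyp4a31. All 5 genes had every KO array above every rescued array, a property that the distance itself favours. Their values share the same arrays, so the likeness is a description of 7 livers.

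**Figure D3:**
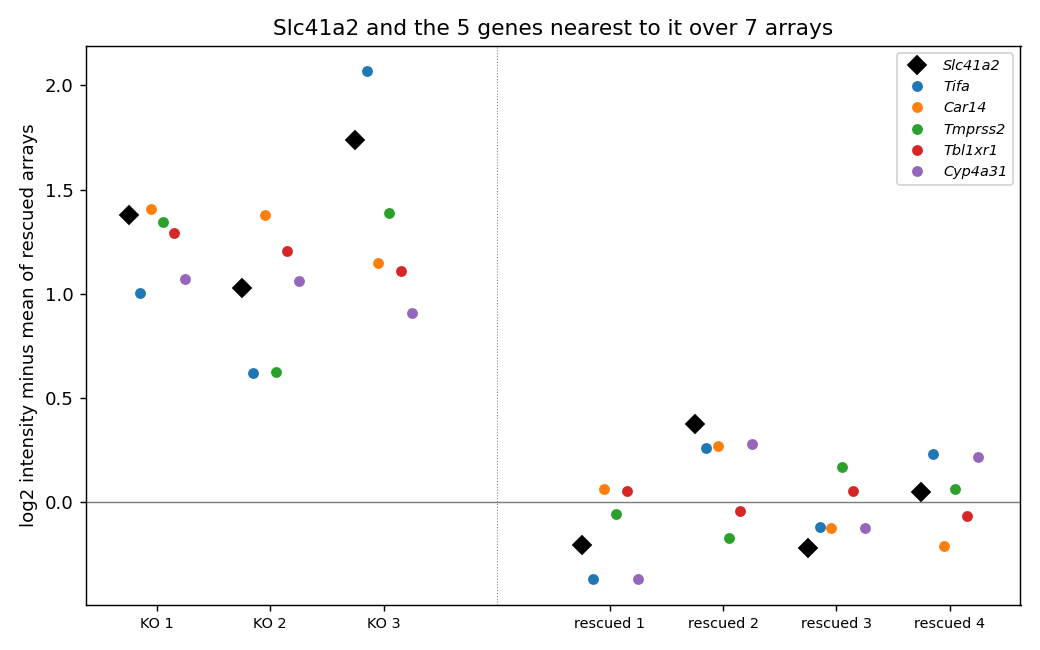
Log2 intensity minus the gene's mean in the rescued arrays for Slc41a2 (black diamonds) and the 5 genes nearest to it (coloured circles), with KO arrays left of rescued arrays. In KO replicate 3, Slc41a2 and Tifa lie above the other 4 genes, and in the rescued arrays all 6 genes stay within 0.4 of 0.

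The neighbours of Slc41a2 on chromosome 10 were looked up after its value was known. Of the 3 protein-coding genes annotated on each side, 2 were called higher and none lower, beside 9.54% and 4.85% of all genes. Whether genes near Slc41a2 are called more often than other genes was not tested. Chst11, a chondroitin sulfotransferase gene directly next to Slc41a2, had 6.41 ± 0.040 in KO livers (SD, n = 3) and 6.01 ± 0.13 in rescued livers (SD, n = 4). Its difference was 0.40 (SE 0.08, adjusted p = 0.0122 in limma's test) and 0.26 after cyclic loess, and the call was lost without KO replicate 1. Txnrd1, the cytosolic thioredoxin reductase gene, differed by 0.26 (SE 0.07, adjusted p = 0.0434 in limma's test), a call that was lost without any 1 array other than KO replicate 3. The remaining 4 neighbours had differences from -0.20 to 0.12.

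Beyond the 9 members, 41 of 44 other listed genes of magnesium handling were measured by a probe set of their own, and the other 3 were not analysed here. The lists were chosen with earlier results of these data known, and the adjusted p-values below make no allowance for that choice. Of the 41, 3 were called higher in KO livers, 3 were called lower and 35 were not called. Over all genes, the shares beside these counts and those of the lists below were 9.54% called higher and 4.85% lower. The median difference of the 41 was 0.12, against 0.090 over all genes.

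In the list of organelle and other magnesium transporters, 1 of 18 genes rose, 3 fell and 14 were not called, and the median difference was -0.032. The gene that rose was Nipal1, of the NIPA family of magnesium transporters. It had 7.19, 7.32 and 7.21 in KO livers, against 6.81, 6.30, 6.76 and 6.49 in rescued livers, and the groups did not overlap. The difference was 0.65 (SE 0.12, adjusted p = 0.00733 in limma's test), or 1.57-fold, with a range of 0.56 to 0.73 with each array left out. It was called in every setting tried.

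The genes that fell were Magt1, Slc25a25 and Mmgt1. Magt1, a magnesium transporter that also serves in the oligosaccharyltransferase complex, had 9.01, 9.20 and 9.62 in KO livers, against 9.75, 9.70, 9.61 and 9.70 in rescued livers. KO replicate 3 overlapped with the rescued arrays, and the difference was -0.41 (SE 0.12, adjusted p = 0.0439 in limma's test). Slc25a25, a mitochondrial carrier that exchanges ATP with magnesium for phosphate, had 8.61, 8.62 and 8.52 in KO livers, against 8.72, 9.01, 9.11 and 8.80 in rescued livers. Its groups did not overlap, and the difference was -0.32 (SE 0.10, adjusted p = 0.0466 in limma's test). Mmgt1, a membrane magnesium transporter that is also a subunit of the ER membrane protein complex, had 8.59, 8.60 and 8.61 in KO livers, against 8.83, 8.73, 8.83 and 8.87 in rescued livers. Its KO arrays were nearly equal, and the difference was -0.22 (SE 0.06, adjusted p = 0.0462 in limma's test). These 3 calls were close to the threshold, and none was made after quantile scaling or cyclic loess. With 1 array left out, Magt1 was called only without KO replicate 3, Slc25a25 only without rescued replicate 1, and Mmgt1 in no case, while all 3 differences stayed negative.

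The CNNM partners, which are PRL phosphatases and the small GTPase Arl15, held no called gene among 3 measured. Arl15 had 7.94 ± 0.12 in KO livers (SD, n = 3) and 8.11 ± 0.08 in rescued livers (SD, n = 4), a difference of -0.17 (adjusted p = 0.139 in limma's test). Ptp4a2, a PRL phosphatase gene, had 10.03 ± 0.21 in KO livers (SD, n = 3) and 10.19 ± 0.02 in rescued livers (SD, n = 4). Its difference was -0.15 (adjusted p = 0.242 in limma's test), and without KO replicate 3 it was -0.27 and called (adjusted p = 0.0384).

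The other 6 TRPM channels held no called gene either. Their median difference was 0.12, beside 0.14 over all genes below the median level. The smallest p was that of Trpm3, with a difference of 0.12 (adjusted p = 0.199 in limma's test), followed by Trpm1 with 0.15 (adjusted p = 0.215 in limma's test). Both differences were below 0 after cyclic loess.

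Of 14 measured genes of kidney and gut magnesium reabsorption and its control, 2 rose and none fell, with a median difference of 0.19, beside 0.14 over all genes below the median level. For 7 of the 14, all KO arrays lay above all rescued arrays, and for 1 all lay below. Over all genes these shares were 21.0% above and 8.56% below. Of the 7 with all KO arrays above, Cldn10, Slc12a1, Slc12a3 and Bsnd were dim, with rescued means of 4.68, 5.12, 5.95 and 5.94. The 95th percentile of the receptor genes, the stand-in for background, was 6.21, and Cldn19, Fxyd2 and Kcna1 lay above it in both groups. The potassium channel gene Kcna1 had 7.12, 6.92 and 6.80 in KO livers, against 6.66, 6.69, 6.41 and 6.52 in rescued livers, a difference of 0.38 (SE 0.10, adjusted p = 0.0280 in limma's test). The sodium pump regulator Fxyd2 had 6.62, 6.55 and 6.42 in KO livers, against 6.36, 6.21, 6.23 and 6.32 in rescued livers, a difference of 0.25 (SE 0.07, adjusted p = 0.0491 in limma's test). Neither was called after quantile scaling or cyclic loess, where the differences were 0.28 and 0.27 for Kcna1 and 0.12 and 0.11 for Fxyd2. With 1 array left out, the call of Kcna1 was lost without KO replicate 1 or 2 or rescued replicate 3 or 4, and that of Fxyd2 was kept only without KO replicate 3 or rescued replicate 1.

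**Figure D4:**
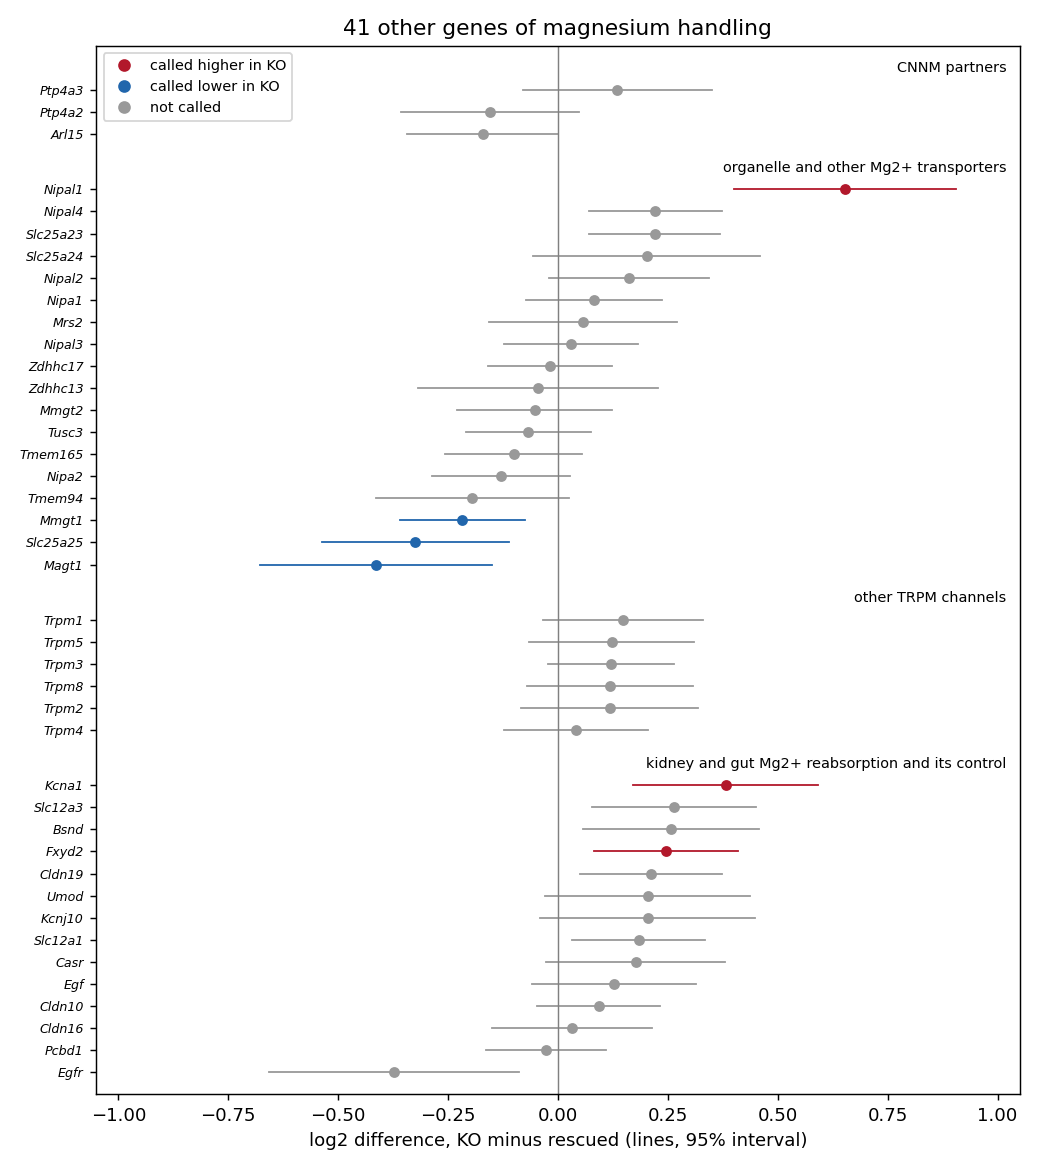
Log2 difference, KO minus rescued, of 41 other genes of magnesium handling in 4 lists, with 95% intervals from the fit over all genes. Red points were called higher in KO livers (3 genes), blue points lower (3 genes) and grey points were not called (35 genes). Nipal1 has the largest difference in the plot, at 0.65.

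The arrays read RNA of whole liver, in which fewer cells of a type and less RNA per cell cannot be told apart. Of 7 measured hepatocyte markers none was called, and their summed intensity was 69331 to 70693 in KO livers and 68741 to 71175 in rescued livers. No Kupffer cell marker (7), cholangiocyte marker (4) or leukocyte marker (4) was called. The summed intensity of the Kupffer cell markers was 2896 to 3094 in KO livers and 2231 to 3317 in rescued livers, and that of the cholangiocyte markers was 513.1 to 584.0 in KO livers and 444.5 to 491.8 in rescued livers. The leukocyte markers summed to 379.7 to 460.0 in KO livers and 363.5 to 410.0 in rescued livers. Of 6 endothelial markers Clec4g was called lower (difference -0.29), and of 6 stellate cell markers Lrat was called higher (difference 0.32). Over all genes tested 9.54% were called higher and 4.85% lower. Marker lists this short cannot show that the share of a cell type was unchanged. The endothelial sums were 3944 to 4763 in KO livers and 4684 to 4800 in rescued livers, and the stellate sums were 4013 to 4502 in KO livers and 3981 to 4451 in rescued livers. The part of other cell types in the differences of the magnesium transport genes was not tested.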

How the data were processed

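Per the labels' protocols, RNA was extracted with Trizol from frozen livers and hybridised to Affymetrix Mouse Gene ST arrays. The authors deposited 1 linear intensity per array for each of 27541 probe sets, all above 0, made with RMA and Partek as named in the submitters' processing notes, without versions or roles. The last scaling and the genome build are not given in the sources used here.

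Log2 was taken of these intensities, with no further scaling or filter. By the platform annotation 21631 probe sets had 1 symbol, 1317 several and 4593 none, and 21544 of the first matched RefSeq (GRCm38.p6) by gene ID. A gene was read at its brightest probe set with 1 symbol. Groups came from the labels, and KO was compared with rescued in limma 3.58.1 (R 4.3.3, lmFit and eBayes, two-sided, without covariates), adjusted by Benjamini-Hochberg over 19933 genes. The labels call the arrays biological replicates, and their number limits the precision. On simulated data for this comparison, with independent noise over 19933 genes, the fit recovered 56% of 50 genes changed 1.3-fold and 100% of 50 changed 1.5-fold, with 9 false calls. The simulation changed 200 genes and held no offset between arrays, whereas 2867 genes were called in the data. Its recovery and false calls therefore need not hold for the data.

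The members and lists were chosen with earlier results of these data known. Named genes are all members, Hdac3, the called genes of each magnesium list (at most 4, or, where none is called, the 2 with the smallest p) and the 5 genes nearest to Slc41a2. The neighbours of Slc41a2 were chosen after seeing the data. The alternatives were quantile, median and cyclic loess scaling, genes above the median level, a fit over every probe set, averaged probe sets, a trended robust variance, array weights, a replicate block, an adjusted p under 0.1 and leaving out each array. Figures used matplotlib 3.10.9.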

Additional observations from a re-analysis of the deposited data

Results flagged for a closer look

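Of 27 genes named here and checked, 2 had a rescued array far from the other 3 by Dixon's criterion. Chance meets this criterion in about 1 in 20 groups. Cnnm1 had 6.33 in rescued replicate 4, below the nearest rescued array at 6.46. Without this array the difference of Cnnm1 was 0.22 and was not called. Ptp4a2 had 10.16 in rescued replicate 1, against 10.20 in the nearest rescued array, a gap that is small because the rescued arrays lay within 0.04 of each other.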

How the results depend on the processing

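Slc41a2 kept its call in all 9 alternatives and without any 1 array. After quantile scaling, median centring and cyclic loess, in this order, Cnnm1 differed by 0.13, 0.16 and 0.13 and Trpm6 by 0.091, 0.14 and 0.083, none called. Trpm7 was not called after quantile scaling (-0.28) or cyclic loess (-0.29). Trpm6 was also not called with every probe set fitted (0.23), a trended robust variance (0.23) or array weights (0.21), and Trpm7 with every probe set fitted (-0.32) or array weights (-0.31). The sign turned for Slc41a1 (-0.049) and Slc41a3 (-0.00029) after median centring, for Cnnm3 after median centring (-0.081) and cyclic loess (-0.0076), and for Cnnm4 after quantile scaling (-0.026), median centring (-0.027) and cyclic loess (-0.032). It also turned for Trpm3 after quantile scaling (-0.023) and cyclic loess (-0.030), and for Trpm1 after cyclic loess (-0.0048). With single arrays left out the differences ranged from -0.21 to 0.18 for Slc41a1, from -0.014 to 0.16 for Slc41a3, from 0.22 to 0.27 for Cnnm1, from -0.077 to 0.069 for Cnnm3, from -0.023 to 0.11 for Cnnm4, from 0.19 to 0.25 for Trpm6, from -0.39 to -0.25 for Trpm7 and from -0.56 to -0.40 for Hdac3.

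The members called higher numbered 1 (Slc41a2) in each rescaling, among genes above the median level, where Cnnm1 and Trpm6 were not tested, and with the replicate block. The members called lower numbered 0 after quantile scaling, cyclic loess, with every probe set fitted, with array weights and with the replicate block. With single arrays left out 1 to 2 members were called higher and 0 to 1 lower. Of the other magnesium genes, 1 was called higher and 1 lower after quantile scaling and after cyclic loess, 0 lower with every probe set fitted and with the replicate block, and 9 higher at an adjusted p under 0.1. With single arrays left out 1 to 4 were called higher and 0 to 3 lower. Over all genes 2867 were called, 5528 at an adjusted p under 0.1 and 897 to 3263 with single arrays left out. Of the calls as deposited 66.3% were higher in KO livers, against 45.9% with quantile scaling, 27.2% with median centring and 45.0% with cyclic loess. The causes were not tested.

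The replicate numbers of the titles were not shown to pair the arrays, since deviations from the group means correlated at 0.15, 0.0028 and 0.0053 between arrays of the same number. With the replicate block Slc41a2 differed by 1.40 and was called, while Cnnm1 (0.22), Trpm6 (0.21) and Trpm7 (-0.33) were not, and 1938 genes were called.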
